A study of Mus musculus with 4 samples.

Results

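The S phase genes described here are 31 of the 32285 genes counted in each library. They are listed by the function of their products: proteins that license and fire replication origins, supply nucleotides, run the replication fork and pack the new DNA into chromatin. All 31 were found by symbol. The study treated a mouse model of breast cancer in the brain with SCDi, an inhibitor of stearoyl-CoA desaturase, which desaturates newly made fatty acids. Female C57BL/6 mice with an intact immune system were implanted in the brain with GFP-labelled EO771 cells, a mammary carcinoma line of the same strain, and were given vehicle or SCDi over 14 days. Neither compound nor dose is named in the sources used here. For each treatment the brains of 3 mice were pooled and sorted into live GFP+ CD45- tumour cells and live CD45+ GFP- immune cells. Each sort gave 1 library of 10x 3' single-cell RNA counts, so there are 4 libraries and no replicate. Every difference below therefore describes the libraries, and treatment, pool and library cannot be told apart. All 95% intervals reflect counting error alone.

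Before S phase a cell loads the MCM helicase onto its replication origins, a step called licensing, which needs Cdc6 and Cdt1. In S phase the helicase is activated by Cdc45 and the GINS complex, primase and polymerase start the new strands, and the clamp protein PCNA holds the enzymes of the fork. Many of these genes are known targets of E2F transcription factors and are transcribed mainly from late G1 into S phase, so their summed transcripts serve as a common mark of cycling cells.

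The 4 libraries held between 6777 and 9034 barcodes and between 135851178 and 329888529 UMIs (unique molecular identifiers, each counting 1 captured transcript). After filtering and doublet removal, tumour cells were gated as cells with at least 2 UMIs of the keratin gene Krt8 and none of Ptprc, which encodes CD45. This gave 6718 vehicle and 7616 SCDi tumour cells, with median depths of 41868 and 37377.5 UMIs and median mitochondrial shares of 2.37% and 2.26%. Marker genes assigned 75.6% of the 6572 vehicle immune cells and 78.3% of the 6120 SCDi immune cells to a leukocyte type. Any pair of libraries shared between 9 and 23 cell barcodes. Krt8, which the gate required, stood at 1488 CPM (UMIs per 1000000 UMIs of the gated tumour cells) in vehicle and 1405 in SCDi. It made up nearly all of the 1507 and 1423 CPM of 7 epithelial markers. The epithelial markers that the gate did not use thus added little to the identity of these cells. Ptprc was 0 by the gate, and the leukocyte markers Cd52, Coro1a, Laptm5 and Cd53, which the gate did not use, summed to 2.23 and 3.51 CPM. The 3 plasma cell markers Jchain, Mzb1 and Sdc1 summed to 508 and 374 CPM there, and their part in the results was not tested.

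Short E2F recognition words were looked for in the RefSeq promoters of build GRCm38 (mm10), which run from 250 bases before to 50 after a gene's start, and 25 of the 31 genes had such a window. The words were TTTCGCGC, TTTGGCGC, TTTCCCGC, TTTGCCGC and GGCGGGAA on either strand, and they can overlap each other. Of the 25 genes, 13 (52.0%) held at least 1 word, compared with 5.25% of 20267 genes with a window. The word TTTGAA, the core of the CHR element known from G2 and M phase promoters, was in 5 of the 25 (20%) and in 18.6% of all windows. A list of 49 G2 and M phase genes showed the reverse: of its 45 genes with a window 2 (4.44%) held an E2F word and 31 (68.9%) the CHR word. The word CCAAT was in 68.0% of the S phase windows, 77.8% of the G2 and M phase windows and 41.7% of all. These matches are descriptions of the sequence, not binding sites.

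The 250 bases before the start are printed for 5 genes, 5' to 3' on the gene's own strand, with E2F words in capitals. Mcm5 (chr8:75109259-75109508, plus strand) and Mcm6 (chr1:128359706-128359955, minus strand), both subunits of the MCM helicase, show words that overlap on opposite strands. Rrm1 (chr7:102441445-102441694, plus strand) and Pola1 (chrX:93632156-93632405, minus strand) carry 1 word each, and Tyms (chr5:30073626-30073875, minus strand), among the genes with the largest difference in tumour cells, carries none in this window.
Mcm5: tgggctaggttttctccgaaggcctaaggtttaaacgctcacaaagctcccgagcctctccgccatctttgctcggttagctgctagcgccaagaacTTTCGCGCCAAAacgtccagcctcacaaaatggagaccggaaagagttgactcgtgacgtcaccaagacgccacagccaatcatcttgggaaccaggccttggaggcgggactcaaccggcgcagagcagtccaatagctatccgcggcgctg
Mcm6: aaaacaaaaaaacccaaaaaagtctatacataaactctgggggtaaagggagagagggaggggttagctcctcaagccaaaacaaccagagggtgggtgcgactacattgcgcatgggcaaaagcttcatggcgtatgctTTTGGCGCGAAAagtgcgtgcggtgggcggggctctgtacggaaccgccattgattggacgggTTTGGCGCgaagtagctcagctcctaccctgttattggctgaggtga
Rrm1: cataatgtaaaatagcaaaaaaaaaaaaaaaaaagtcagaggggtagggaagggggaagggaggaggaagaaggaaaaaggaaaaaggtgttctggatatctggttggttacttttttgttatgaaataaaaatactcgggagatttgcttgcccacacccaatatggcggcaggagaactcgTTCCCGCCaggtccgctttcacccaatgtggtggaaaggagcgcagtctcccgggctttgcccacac
Pola1: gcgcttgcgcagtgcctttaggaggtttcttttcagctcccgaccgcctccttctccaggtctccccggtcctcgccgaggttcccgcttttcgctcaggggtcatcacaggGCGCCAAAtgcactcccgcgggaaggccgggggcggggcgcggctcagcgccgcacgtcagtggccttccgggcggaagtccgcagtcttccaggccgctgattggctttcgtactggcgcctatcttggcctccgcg
Tyms: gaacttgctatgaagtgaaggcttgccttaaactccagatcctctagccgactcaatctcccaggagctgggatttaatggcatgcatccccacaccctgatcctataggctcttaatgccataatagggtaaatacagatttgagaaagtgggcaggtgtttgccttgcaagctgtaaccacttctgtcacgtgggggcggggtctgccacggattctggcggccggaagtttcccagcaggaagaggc
Counted from the start, with negative positions before it, the Mcm5 words begin at -153 and -149 and together cover 12 bases. In Mcm6 a similar pair begins at -110 and -106 and a further word at -47. The genes with an E2F word did not show the larger differences between the tumour libraries: their median log2 ratio of SCDi over vehicle was 0.21, against 0.32 for the 12 genes without a word. Those 12 include Rrm2, Tyms, Rpa2 and Slbp, described below.

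The tumour comparison asks how replication genes stood in cancer cells after SCD inhibition. Summed over all gated tumour cells, the 31 genes gave 468925 UMIs in vehicle and 584758 in SCDi, or 1690 and 2010 CPM. This is 1.19-fold higher in SCDi, a log2 ratio of 0.25 (0.24 to 0.26). Of the 31 genes 30 were higher in SCDi, where 42.0% of the 9366 genes with a mean of at least 5 CPM were. At least 1.2-fold higher were 13 of the 31, against 5.58% of those genes, and at least 1.2-fold lower were 0, against 10.0%. The median of the 31 log2 ratios was 0.23, and that of all 9366 genes was -0.03. The counting interval lay above 0 for the same 30 genes (32.8% of all genes) and below 0 for Cdt1. Beside them, of 48 measured genes of G2 and M phase 47 were higher, with a median of 0.31. Most S phase genes thus differed by a small amount in the same direction.

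**Figure D1:**
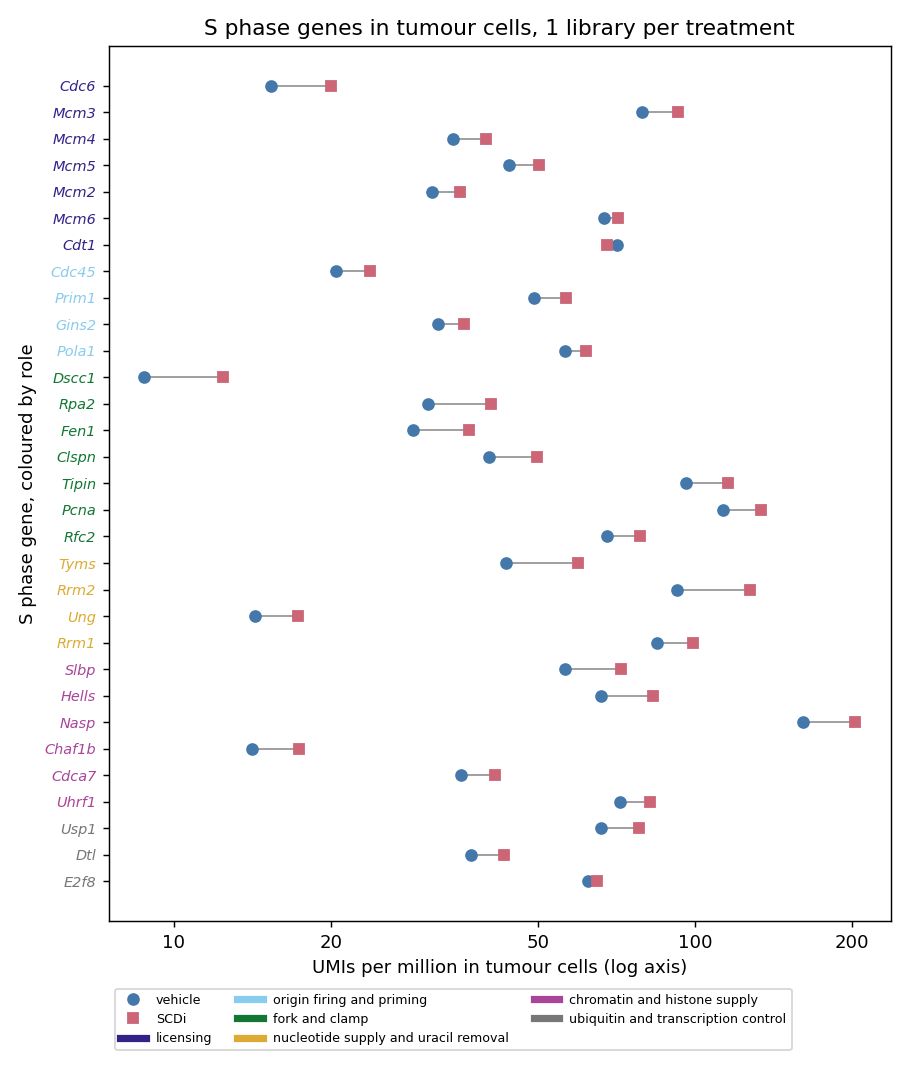
Level of each S phase gene in gated tumour cells, in CPM on a log axis, with a circle for the vehicle library, a square for the SCDi library and gene names coloured by role. The square lies to the right of the circle for 30 of 31 genes, and Cdt1 is the exception.

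The 4 genes of nucleotide supply and uracil removal had a median log2 ratio of 0.37, and 3 of them passed 1.2-fold. Rrm2 (ENSMUSG00000020649, chr12:24708241-24714146, plus strand) encodes the small subunit of ribonucleotide reductase, which makes deoxynucleotides. Its level was 92.5 CPM in the vehicle library (25661 UMIs) and 127 CPM in the SCDi library (37036 UMIs), a log2 ratio of 0.46 (0.44 to 0.48). Tyms (ENSMUSG00000025747, chr5:30058202-30073617, minus strand), thymidylate synthase, makes the thymidine nucleotide of DNA. It stood at 43.4 CPM (12032 UMIs) and 59.7 CPM (17370 UMIs), a log2 ratio of 0.46 (0.43 to 0.50). The transcripts of Rrm2 and Tyms were thus both 1.38-fold higher. The large reductase subunit Rrm1 differed less, at 84.5 and 98.9 CPM (0.23, 0.20 to 0.25). Ung, the glycosylase that removes uracil from DNA, stood at 14.3 and 17.3 CPM (0.27, 0.21 to 0.33).

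At the fork, all 7 genes were higher and 5 passed 1.2-fold, with a median of 0.31. Dscc1, part of the clamp loader that acts in sister chromatid cohesion, had few UMIs, 2438 and 3619, and stood at 8.78 and 12.4 CPM. Its log2 ratio of 0.50 (0.43 to 0.58) was the highest of the 31. Rpa2, a subunit of the protein that coats unwound DNA, stood at 30.8 and 40.6 CPM (0.40, 0.36 to 0.44). The flap endonuclease Fen1, which trims Okazaki fragments, stood at 28.8 and 36.9 CPM (0.36, 0.31 to 0.40). Clspn (claspin), which links stalled forks to the checkpoint kinase CHK1, was at 40.2 and 49.8 CPM (0.31), and Tipin of the fork protection complex was at 96.1 and 116 CPM (0.27). Pcna itself (ENSMUSG00000027342, chr2:132249162-132253314, minus strand) had 31370 UMIs in vehicle, or 113 CPM, and 38913 UMIs in SCDi, or 134 CPM, and was 1.18-fold higher (0.24, 0.22 to 0.26). The clamp loader subunit Rfc2 lay at the low end of this group, at 67.7 and 78.3 CPM (0.21).

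Chromatin and histone supply genes were all higher, with 4 of 6 past 1.2-fold and a median of 0.32. Slbp, which binds the stem-loop of histone mRNA, stood at 56.3 and 72.2 CPM (0.36, 0.33 to 0.39). Hells, a chromatin remodeller needed for DNA methylation, stood at 65.9 and 83.2 CPM (0.34, 0.31 to 0.36). The histone chaperone Nasp had the most UMIs of the list, 44628 and 58972, and stood at 161 and 203 CPM (0.33, 0.32 to 0.35). Chaf1b, a subunit of the chromatin assembly factor CAF-1, stood at 14.1 and 17.4 CPM (0.30). Lower in this group were Cdca7, the partner of Hells, at 35.5 and 41.3 CPM (0.22), and Uhrf1, which brings the maintenance methyltransferase to new DNA, at 71.7 and 81.8 CPM (0.19).

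The licensing genes differed less, with a median of 0.19 and 1 of 7 past 1.2-fold. Cdc6, the loader of the helicase, was that gene, at 15.4 and 20.1 CPM (0.39, 0.33 to 0.44). The helicase subunits formed a narrow band: Mcm3 at 0.23, Mcm4 at 0.21, Mcm5 at 0.19, Mcm2 at 0.18 and Mcm6 at 0.09. Mcm3 had the most UMIs among them, 21950 and 26957, and stood at 79.1 and 92.6 CPM, while Mcm6 stood at 66.9 and 71.1 CPM. Cdt1 (ENSMUSG00000006585, chr8:122568015-122573554, plus strand), whose protein is destroyed in S phase so that origins fire once, went the other way. It had 19691 UMIs in vehicle, or 70.95 CPM, and 19708 in SCDi, or 67.7 CPM, a log2 ratio of -0.07 (-0.10 to -0.04).

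Origin firing and priming genes were all higher and none passed 1.2-fold, with a median of 0.18. Cdc45, which joins the MCM ring in the active helicase, stood at 20.5 and 23.8 CPM (0.22). The primase subunit Prim1 stood at 49.1 and 56.4 CPM (0.20), Gins2 of the GINS complex at 32.1 and 35.96 CPM (0.17), and Pola1, the catalytic subunit of the priming polymerase, at 56.3 and 61.7 CPM (0.13). The 3 remaining genes control protein turnover and transcription. Usp1, a deubiquitinase that acts on PCNA, stood at 65.96 and 78.2 CPM (0.25). Dtl, which guides the ubiquitin ligase that destroys Cdt1 in S phase, stood at 37.2 and 43.1 CPM (0.21). E2f8, an E2F family member that represses E2F targets, was nearly level at 62.2 and 64.7 CPM (0.06, 0.03 to 0.09).

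Position in the genome moved with some of these values. Genes on chromosome 8 had a median log2 ratio of -0.13 over 524 genes, while the medians of the other chromosomes lay between -0.06 and 0.02. Cdt1, Mcm5 and Gins2 lie on chromosome 8. Relative to the median of the other genes on its chromosome, Cdt1 stood at 0.06, Mcm5 at 0.32 and Gins2 at 0.30, and all 31 genes were then above 0. The genes that set each median split evenly around 0 by construction. Whether the tumour cells of the libraries differ in copies of chromosome 8 was not tested.

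**Figure D2:**
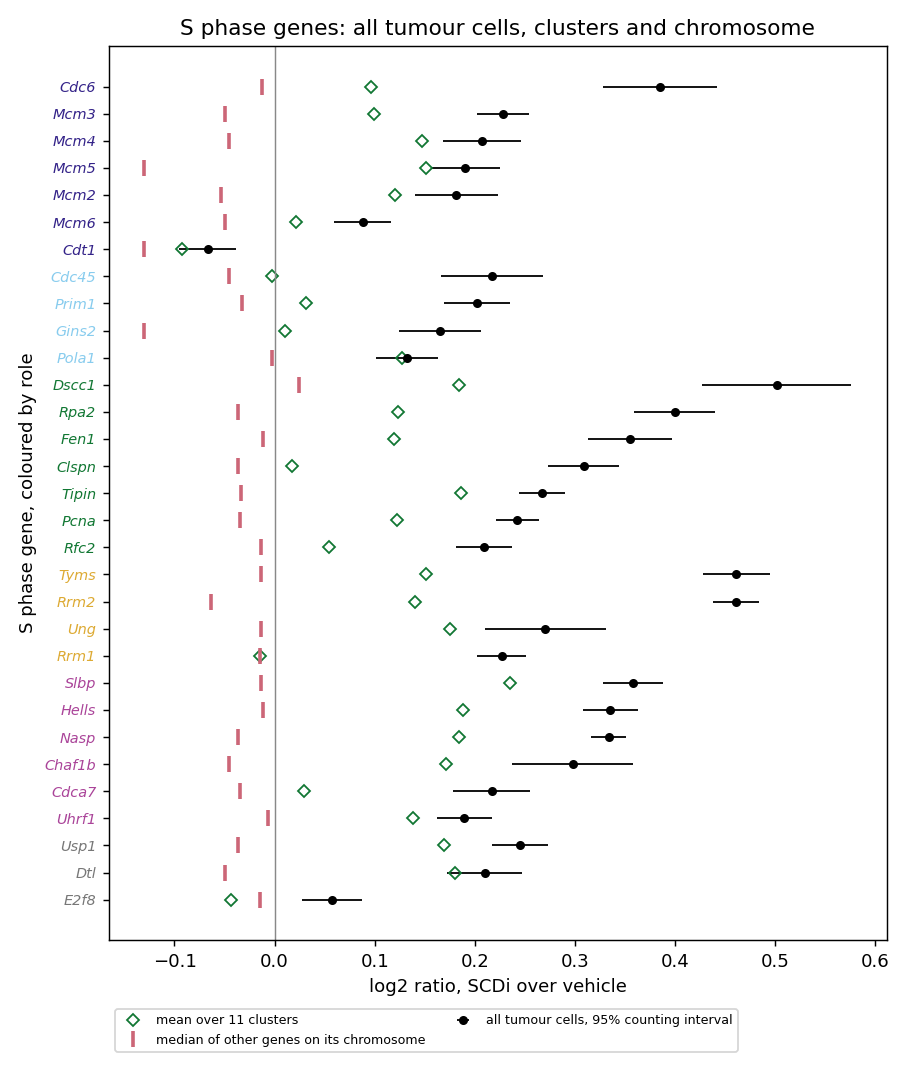
Log2 ratio of SCDi over vehicle in tumour cells for each S phase gene (points with 95% counting intervals), the mean of its log2 ratios over 11 clusters (diamonds) and the median of other genes on its chromosome (bars). Summed over all cells 30 of 31 genes lie above 0, the diamonds lie nearer to 0 for every gene but Cdt1, and the chromosome 8 genes Cdt1, Mcm5 and Gins2 have the lowest chromosome median.

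Other genes of replication gave 67 of 80 higher in SCDi, against 42.0% of all genes, with a median of 0.19. At least 1.2-fold higher were 18, against 5.58%, and as much lower 3, against 10.0%. The counts by group that follow have the same shares over all genes beside them. In origin recognition and helicase assembly 17 of 19 were higher, led by Gins1 (0.53) and Mcm10 (0.34), with Orc3 at -0.03 and Gins3, on chromosome 8, at -0.33. Among polymerase, clamp and ligase genes 20 of 21 were higher, with the clamp loader subunits Rfc3 at 0.41 and Rfc5 at 0.38, Rfc1 at 0.08, and Rnaseh2a, also on chromosome 8, at -0.11. In nucleotide supply 11 of 14 were higher and 3 passed 1.2-fold, with a median of 0.20, below that of the 4 genes above and close to that of the other replication genes. Dtymk and Dut, which make the thymidine nucleotide and remove the uracil nucleotide, stood at 0.35 and 0.34, and Rrm2b, a further reductase subunit, at -0.03. All 7 chromatin genes were higher, from Asf1b (0.31) and Chaf1a (0.28) to Supt16 (0.10) and Ssrp1 (0.04). The control of entry into S phase was mixed, with 12 of 19 higher: Ccna2 (cyclin A2) stood at 0.49 and Fbxo5 at 0.38, but the growth regulator Myc at -0.33 and the retinoblastoma gene Rb1 at -0.31.

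Counted cell by cell, the SCDi cells lay higher across the whole distribution. Each tumour cell was thinned to 10000 UMIs, which kept 6124 vehicle and 7034 SCDi cells and left out 594 and 582 shallower ones. The median cell then had 15 S phase UMIs in vehicle and 19 in SCDi, and the mean was 16.4 ± 9.93 and 20.2 ± 10.1 (SD over cells). The lowest 10% of cells lay at or below 5 UMIs in vehicle and 8 in SCDi, and the highest 10% at or above 30 and 34. The cells were spread without a gap, so any threshold cuts a range and not a cell type. With at least 10 S phase UMIs there were 70.9% (69.8 to 72.1) of vehicle cells and 85.4% (84.5 to 86.2) of SCDi cells, a difference of 14.5 points (13.05 to 15.9). Cells at 9 or 10 UMIs made up 8.56% and 5.84%. With at least 30 UMIs there were 11.5% and 18.4%. Cells low in both S phase UMIs (under 10) and G2 and M phase UMIs (under 20) made up 22.3% of vehicle and 8.40% of SCDi cells, and cells above both thresholds 59.6% and 79.0%.

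**Figure D3:**
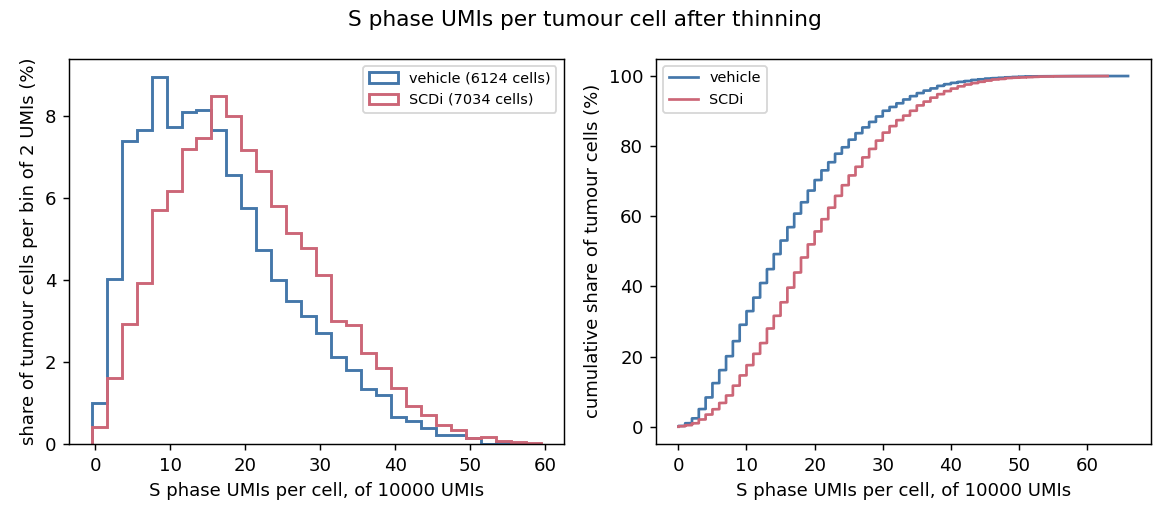
S phase UMIs per tumour cell after thinning to 10000 UMIs, as the share of cells per bin of 2 UMIs (left) and as the cumulative share (right), for 6124 vehicle and 7034 SCDi cells. The SCDi curve lies to the right throughout the range that holds most cells, with medians of 15 and 19 UMIs.

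The same held gene by gene. The share of thinned cells with at least 1 Rrm2 UMI was 46.3% in vehicle and 60.5% in SCDi, a difference of 14.2 points (12.5 to 15.9). For Tyms it was 31.1% and 42.5%, for Hells 41.3% and 51.3%, for Nasp 72.0% and 81.4%, and for Pcna 60.03% and 67.7%. Of the 31 genes 30 had an interval of the difference above 0, a count given without its share over all genes. Cdt1 was the exception, at 47.96% and 46.8%, and its interval (-2.90 to 0.52 points) included 0. A typical cell showed 11 of the 31 genes in vehicle and 13 in SCDi. Free RNA can add UMIs to cells that do not make them, and its level in the tumour libraries was not measured.

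Within ranges of G2 and M phase UMIs the gap was narrower. In cells with under 20 such UMIs (33.6% of vehicle and 14.8% of SCDi cells) the mean was 8.67 S phase UMIs in vehicle and 10.1 in SCDi. From 20 to 59 it was 21.8 and 23.9, and at 60 or more 18.8 and 20.1. Summed within the lowest range, 28 of the 31 genes were higher in SCDi with a median log2 ratio of 0.27, and within the highest range 22 were higher with a median of 0.10. The share of all genes that were higher is not given for these ranges, so the counts are not set against other genes. Rrm2 stood at 0.66 in the lowest range and 0.15 in the highest, Rpa2 at 0.87 and 0.03, and Tyms at 0.48 and 0.35. Other genes had the larger ratio in the highest range: Ung stood at 0.14 and 0.50, Mcm6 at -0.04 and 0.19, Mcm2 at 0.01 and 0.13, Cdca7 at 0.15 and 0.25, and Slbp at 0.25 and 0.32. The ranges therefore did not order the genes alike.

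The genes also differed in how far they follow the division genes. In the vehicle cells Clspn was higher in cells with at least 60 than in cells with under 20 G2 and M phase UMIs, by a log2 ratio of 3.10, as were Rrm2 (2.92), Dscc1 (2.37) and Cdc45 (2.14). Mcm6 was level at 0.01, Cdt1 stood at 0.17, and Ung was lower at -1.38. Over the 31 genes this measure went with the log2 ratio of SCDi over vehicle (Pearson's r 0.51, Spearman's rho 0.51), a description over genes that share the vehicle library and its cells. The gene's own mean level did not go with it as closely (r -0.22, rho -0.11). Among 6183 non-member genes, those whose UMIs followed the summed S phase UMIs most closely over the 6124 vehicle cells were Top2a (r 0.43), Dut (0.42), Rad51ap1 (0.42), Hmgb2 (0.40) and Rad51b (0.39). Of these 5, Rad51b was lower in SCDi, at 73.4 and 70.9 CPM (-0.05).

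The mix of tumour cells differed between the libraries, and the S phase difference was smaller on average within clusters. The tumour cells were put in 14 clusters made without S phase, G2 and M phase and other replication genes. The clusters still differed in G2 and M phase level, from 1717 CPM in cluster 4 to 7257 in cluster 2 of the vehicle library. They thus sorted cells partly by cycling, and a comparison within clusters holds part of it fixed. Of the 14 clusters, 11 held at least 50 cells of both libraries. Clusters 3, 9 and 13 were left out. Clusters 3 and 9 held 19.9% and 7.30% of SCDi cells, at 2324 and 2384 CPM, and cluster 13 held 1.85% of vehicle cells. Averaged over the 11 with equal weight whatever their size, the log2 ratio of the S phase sum was 0.11, compared with 0.25 over all cells. It was above 0 in 6 clusters and below 0 in 5, from -0.15 in cluster 10 to 0.53 in cluster 6, and the counting interval lay above 0 in 6 and below 0 in 4. The 5 clusters below 0 had the highest S phase levels in vehicle, 1824 to 3346 CPM, and the 6 above 0 had 989 to 1692 CPM. The vehicle level is itself part of the ratio. In SCDi the levels overlapped, with cluster 12, above 0, at 2226 CPM and cluster 5, below 0, at 1762 CPM. Cluster 6 held the shallowest cells, with medians of 2045 UMIs in vehicle and 1256 in SCDi. Clusters 1 and 4 had low S phase levels in both libraries, 1057 and 1060 CPM in vehicle and 1119 and 1167 CPM in SCDi. They held 22.6% and 16.1% of vehicle cells but 5.76% and 5.46% of SCDi cells. Cluster 10 had the highest level, 3346 and 3019 CPM, and held 1.19% and 4.74% of cells.

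Gene by gene, the mean over clusters was above 0 for 27 of the 31, with a median of 0.12. The share of all genes above 0 as a mean over clusters is not given. Slbp (0.24), Hells (0.19) and Tipin (0.19) kept the largest values, and Usp1 was higher in all 11 clusters. Rrm2 stood at 0.14 and Tyms at 0.15 on this measure, while Rrm1 (-0.01), Cdc45 (-0.00), E2f8 (-0.04) and Cdt1 (-0.09) lay below 0. Cells of 1 library made up at least 80% of 5 clusters, and the 4 of these that were mostly SCDi held 47.3% of SCDi cells. Such clusters may reflect the library and not a cell state. Without the 5 clusters the log2 ratio of the sum was 0.14, and Mcm6 (-0.06) and Pola1 (-0.15) changed sign to lower in SCDi.

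**Figure D4:**
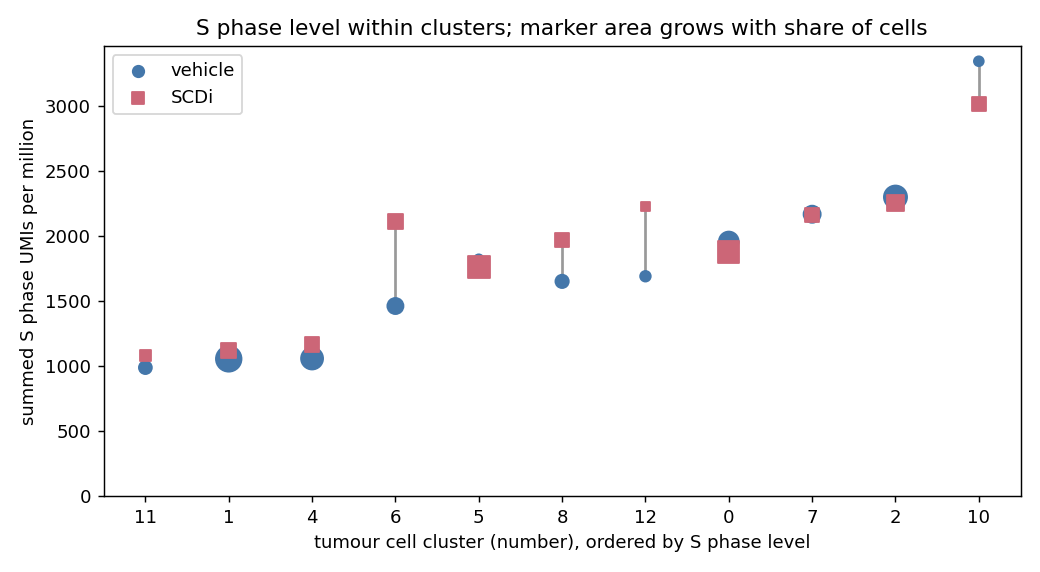
Summed S phase CPM in the 11 tumour cell clusters with at least 50 cells of both libraries, in order of level, for vehicle (circles) and SCDi (squares), with marker area growing with the share of that library's cells. Clusters 1 and 4, near 1060 CPM in vehicle, hold a larger share of vehicle than of SCDi cells, and the direction between the libraries differs among clusters.

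The immune comparison asks whether the same genes differed in leukocytes of the same brains. Leukocytes were gated by marker genes, and the S phase sum set cell types far apart in both libraries. The T cell sum was 1734 CPM in vehicle and 2419 in SCDi, near the tumour cells, B cells at 1210 and 1451, microglia at 1008 and 860, and natural killer (NK) cells at 919 and 998. Macrophages stood at 484 and 574, and monocytes at 340 and 327. Of the dendritic cells, the migratory ones stood at 396 and 336, the plasmacytoid ones at 362 and 384 and type 2 at 308 and 415. Neutrophils, which have left the cycle, gave 182 and 220 CPM over 60 and 43 cells. Thinned to 2000 UMIs, 31.6% and 34.9% of neutrophils still had at least 1 S phase UMI, at median depths of 3655 and 4820. With 5 or more UMIs there were 0 of 57 and 0 of 43 neutrophils, which allows shares of up to 6.27% and 8.22% (exact binomial limits), and 5 UMIs were used below. Krt8 stood at 0 to 3.29 CPM in the leukocyte types against 1488 and 1405 in the tumour cells. At the tumour cells' ratio of S phase to Krt8 UMIs, this corresponds to at most 4.70 CPM of S phase UMIs in any type.

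In T cells every S phase gene was higher in SCDi. Over 323 vehicle and 216 SCDi cells the log2 ratio of the sum was 0.48 (0.44 to 0.52), and 31 of 31 genes were higher, where 44.2% of 9724 genes were. At least 1.2-fold higher were 27 of 31, against 15.4%, and at least 1.2-fold lower 0, against 21.8%. Pcna stood at 163 and 225 CPM (0.46), Nasp at 134 and 186 (0.47) and Mcm6 at 122 and 147 (0.26). The range ran from Ung, 8.16 and 19.0 CPM (1.21, 0.72 to 1.72), to Pola1, 105 and 107 CPM (0.03, -0.14 to 0.19). The G2 and M phase sum over all T cells stood at 4748 and 4845 CPM (0.03), while its subsets, given below, ranged more widely. As a mean of each cell's own CPM, the log2 ratio of the S phase sum was 0.32. After thinning, 16.4% of vehicle and 22.7% of SCDi T cells had at least 5 S phase UMIs, and the interval of this difference (-0.46 to 13.3 points) included 0. The 10% of T cells with the most S phase UMIs held 58.5% of them in vehicle and 54.9% in SCDi. The counts of genes thus rest largely on the same cells.

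Regulatory T cells, which restrain other T cells and were gated here as T cells with Foxp3 and little or no Cd8a and Cd8b1, stood highest of all types. Over 144 and 70 cells the sum was 1999 CPM in vehicle and 3110 in SCDi, a log2 ratio of 0.64 (0.59 to 0.69), with 31 of 31 genes higher against 49.3% of all genes. At least 1.2-fold higher were 30, against 26.3%, and as much lower 0, against 27.6%. Ung stood at 6.40 and 22.2 CPM (1.78) and Pola1 at 125 and 150 (0.26), again the ends of the range. Their G2 and M phase sum was 5359 and 6961 CPM (0.38). Pcna stood at 186 and 261 CPM (0.49), Nasp at 143 and 235 (0.71) and Mcm6 at 159 and 207 (0.38). With at least 5 UMIs after thinning there were 33 of 144 vehicle cells (22.9%) and 28 of 70 SCDi cells (40%), a difference of 17.1 points (4.04 to 30.3). Their median depths were 18958.5 and 25686 UMIs, and the part of depth in the unthinned values was not tested. CD8 T cells, at 42 and 55 cells too few in vehicle for a comparison, gave 1350 and 2518 CPM. CD4 T cells outside the regulatory gate gave 1678 and 1543 CPM over 90 and 48 cells. These 48 cells are likewise too few for a comparison. Their G2 and M phase log2 ratios were 0.52 in CD8 and -0.94 in CD4 T cells.

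**Figure D5:**
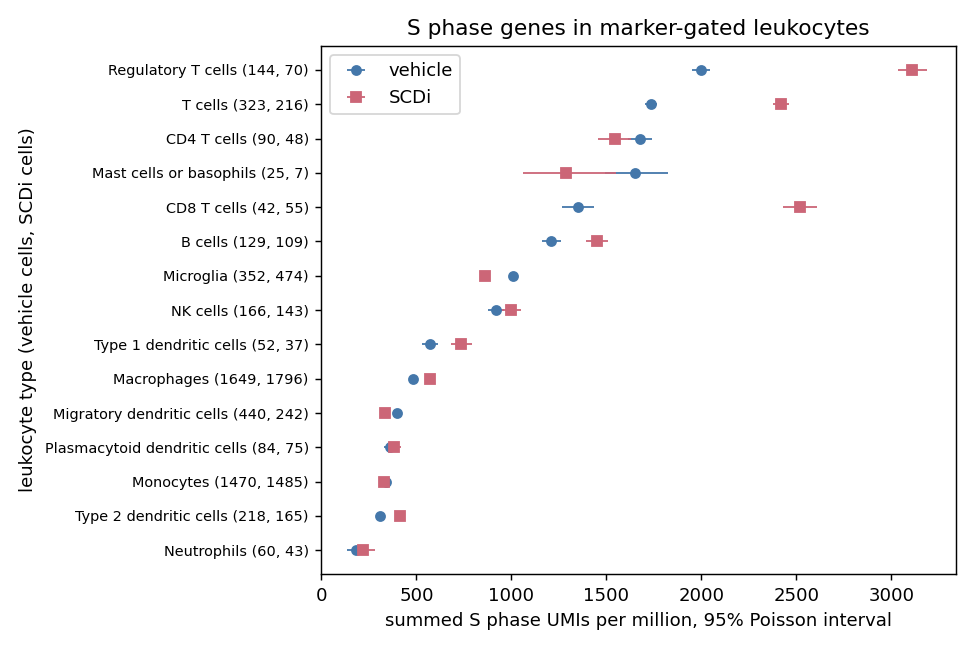
Summed S phase CPM in each marker-gated leukocyte type, with 95% Poisson intervals, for the vehicle (circles) and SCDi (squares) immune libraries and the numbers of cells beside each name. Regulatory T cells, at 1999 and 3110 CPM, lie highest, neutrophils lowest, and microglia lie lower in SCDi than in vehicle.

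In B cells the sum was higher in SCDi by a log2 ratio of 0.26 (0.18 to 0.34) over 129 and 109 cells, with 23 of 30 measured genes higher against 43.0% of all genes. Past 1.2-fold, 16 were higher (22.4% of all genes) and 4 lower (33.1%). The G2 and M phase sum stood at 1895 and 2693 CPM (0.51). Cdc45 (9 and 41 UMIs) and Pola1 (154 and 99 UMIs) marked the ends, at 2.27 and -0.50. Pcna stood at 109 and 135 CPM (0.31) and Nasp at 97.8 and 137 (0.48), while Rfc2 stood at 88.8 and 75.8 (-0.23). A few cells carried most of this signal: the 10% of B cells with the most S phase UMIs held 70.9% of them in vehicle and 77.4% in SCDi, and as a mean of each cell's own CPM the log2 ratio was 0.10. In NK cells the log2 ratio was 0.12 (0.02 to 0.22) over 166 and 143 cells, with 20 of 29 genes higher against 52.0%, and it was 0.02 without doublet removal. Tyms (14.7 and 29.8 CPM, 1.01) and Dtl (21.8 and 16.9 CPM, -0.36) were its ends. The G2 and M phase sum of NK cells differed more than the S phase sum, at 1527 and 2604 CPM (0.77). The top 10% of NK cells held 53.7% of their S phase UMIs in each library.

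Macrophages, the most numerous type, had a log2 ratio of 0.25 (0.22 to 0.27) over 1649 and 1796 cells, with median depths of 18792 and 21511.5 UMIs. Of 21 measured genes 19 were higher, against 47.8% of all genes, and 13 passed 1.2-fold, against 6.97%, with 0 as much lower, against 12.8%. The genes with the most UMIs differed little: Pcna stood at 106 and 112 CPM (0.07), Rfc2 at 52.3 and 56.1 (0.10) and Slbp at 47.9 and 46.8 (-0.03). The highest ratio was that of Dscc1 (16 and 81 UMIs, 1.96), which had too low a level to be among the 21. Pola1 was lowest, at 21.7 and 20.4 CPM (-0.09). The 10% of macrophages with the most S phase UMIs held 32.1% of them in vehicle and 43.9% in SCDi. With at least 5 UMIs after thinning there were 0.791% (13 of 1644 cells) and 1.95% (35 of 1795 cells), a difference of 1.16 points (0.38 to 1.98). As a mean of each cell's own CPM the log2 ratio of the sum was 0.14. The G2 and M phase sum stood at 930 and 1106 CPM (0.25).

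Microglia, the resident macrophages of the brain, went the other way. Over 352 and 474 cells the log2 ratio was -0.23 (-0.27 to -0.19), with 2 of 29 genes higher against 46.5% of all genes and 11 at least 1.2-fold lower against 10.6%. Tipin was the 1 gene past 1.2-fold higher, against 7.64%. Pcna stood at 157 and 126 CPM (-0.33, -0.43 to -0.22), Nasp at 68.0 and 65.8 (-0.05) and Rfc2 at 65.4 and 60.03 (-0.12). Cdc6 was lowest (42 and 26 UMIs, -0.97) and Tipin highest (25.02 and 31.1 CPM, 0.32). The G2 and M phase sum was level at 2312 and 2298 CPM (-0.01). With at least 5 UMIs after thinning there were 8.81% and 6.12% of cells, and the interval of the difference (-6.57 to 0.89 points) included 0. The 10% of microglia with the most S phase UMIs held 59.6% of them in vehicle and 58.5% in SCDi, so the counts of genes rest largely on the same cells. Median depths were 21914.5 and 17147 UMIs.

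The remaining types had low sums. Migratory dendritic cells had a log2 ratio of -0.24 (-0.34 to -0.14), with 2 of 18 genes higher against 42.3%, both past 1.2-fold (13.9%), and 10 at least 1.2-fold lower (20.3%). Their Slbp stood at 57.3 and 50.8 CPM, Pcna at 50.9 and 45.8 and Rfc2 at 45.5 and 43.0, with Tipin (0.46) and Mcm6 (-0.55) at the ends. Monocytes stood at -0.06 (-0.10 to -0.01), with 4 of 14 higher against 47.2%, 1 of them past 1.2-fold (7.12%), and 3 as much lower (10.9%). There Slbp stood at 51.8 and 45.4 CPM (-0.19), Rfc2 at 46.2 and 51.2 (0.15) and Pcna at 66.9 and 65.4 (-0.04), with E2f8 at 0.43 and Rrm2 (50 and 16 UMIs) at -1.63. Type 2 dendritic cells stood at 0.43 (0.32 to 0.54), with 15 of 17 higher against 52.6% and 10 past 1.2-fold against 24.4%, and at 0.27 as a mean of each cell's own CPM. Their G2 and M phase sum stood at 808 and 1155 CPM (0.52). Of these cells, 85 of 218 in vehicle and 78 of 165 in SCDi had exactly the number of markers the gate needed. After thinning, 1 of 218 and 1 of 165 had at least 5 S phase UMIs. The 10% with the most S phase UMIs held 28.9% and 42.6% of them. Pcna stood there at 49.3 and 61.3 CPM, Tipin at 6.42 and 15.5 and Cdt1 at 9.50 and 5.88. For plasmacytoid dendritic cells the log2 ratio of 0.08 (-0.10 to 0.27) was not distinguishable from 0 at this depth, with 11 of 18 higher against 51.5%, 6 past 1.2-fold (25.9%) and 6 as much lower (24.3%). Type 1 dendritic cells (52 and 37 cells, 569 and 737 CPM) and mast cells or basophils (25 and 7 cells, 1650 and 1288 CPM) were too few to compare. The G2 and M phase log2 ratio was -0.09 in migratory dendritic cells, 0.02 in monocytes and 0.08 in plasmacytoid dendritic cells.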

How the data were processed

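The values used are raw UMI counts, deposited as 1 matrix of genes by barcodes for each of 4 libraries. Per the submitters' processing notes the authors ran Cell Ranger 7.1.0 with mm10 to make them. Gene annotation and handling of intronic reads were not given in the sources used here. Barcodes with under 300 genes or over 15% mitochondrial UMIs were left out, and the highest doublet scores of a Scrublet-like method were removed at 0.8% per 1000 barcodes. That removed 387 vehicle immune, 444 vehicle tumour, 333 SCDi immune and 633 SCDi tumour barcodes and left 6572, 7009, 6120 and 8262 cells. Gated tumour cells also had under 2 UMIs of the endothelial gene Cldn5. Leukocytes were gated on the number of type markers with at least 2 UMIs, macrophages on at least 10 and monocytes on under 3 complement C1q UMIs per 10000. T cell subsets were gated on UMIs of Foxp3, Cd8a, Cd8b1 and Cd4. Gates and the thresholds per cell were set after the data were seen, and the S phase genes and all lists were chosen with earlier results of these data known.

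UMIs were summed over the cells of a type, scaled to CPM, and compared as log2 ratios with 0.5 counts added. Ratios have the exact conditional binomial 95% interval of a pair of Poisson counts, shares the Clopper-Pearson interval and differences of shares the Newcombe interval, and the calculation was tested on simulated data. With 1 library per group no test across animals was possible and no p-value is given. A type was compared where each library held 50 cells and 100000 UMIs of it. A gene counted as measured at a mean of 5 CPM over both libraries, and as past the fold at 1.2-fold. Clusters came from the Leiden algorithm (leidenalg 0.10.2, resolution 1.0, 2000 variable genes, 30 components, 20 neighbours). Within leukocyte types the genes named were those with the most UMIs and, with at least 30 UMIs, the highest and lowest ratio, though not all such genes are named. Gene positions are from GENCODE M21 and promoters from RefSeq. Alternatives varied the filter, doublets, gates, scaling, cell weights, low-count filter, added counts, thinning, clusters and chromosome. The values of 1 nucleotide supply gene are not reported here.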

Additional observations from a re-analysis of the deposited data

Results flagged for a closer look

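In 3 leukocyte types the summed S phase genes moved opposite to the tumour cells, whose log2 ratio (SCDi over vehicle) was 0.25. The ratio was -0.23 in microglia, -0.24 in migratory dendritic cells and -0.057 in monocytes. For the share of thinned cells with at least 5 S phase UMIs, the interval of the difference included 0 in all 3. It ran from -6.57 to 0.89, from -1.62 to 1.67 and from -0.74 to 0.28 points. The G2 and M phase log2 ratios were -0.01, -0.09 and 0.02. With 1 library per group the difference between types was not tested.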

How the results depend on the processing

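Of the values for whole lists under alternatives, 98 were counted as unmoved within their counting interval and 24 as moved, and none changed sign. These values include counts of higher genes, which have no counting interval and cannot change sign. Some alternatives could not move a value, as the sum does not depend on the low-count filter. The tally is therefore no measure of how robust the results are. In tumour cells the log2 ratio of the S phase sum, 0.25, was 0.24 without doublet removal, 0.28 with median-of-ratios scaling, 0.31 as a mean of each cell's own CPM, 0.11 as a mean over clusters, 0.29 relative to the chromosome median and 0.14 without clusters mostly of 1 library, an alternative chosen after seeing the data. The median gene, 0.23, was 0.26, 0.30, 0.12, 0.28 and 0.12 under the last 5 of these. Single genes changed sign as a mean over clusters (Rrm1 -0.015, Cdc45 -0.0025, E2f8 -0.044), relative to the chromosome (Cdt1 0.063) and without clusters mostly of 1 library (Mcm6 -0.055, Pola1 -0.15). Without doublet removal, microglia stood at -0.17, NK cells at 0.017 and regulatory T cells at 0.50. As a mean of each cell's own CPM, B cells stood at 0.10, macrophages at 0.14, T cells at 0.32, type 2 dendritic cells at 0.27 and regulatory T cells at 0.70. With 1 more marker required, B cells stood at 0.38, macrophages at 0.21, microglia at -0.18 and T cells at 0.56, and macrophages without a Krt8 UMI at 0.21. The cause of these shifts was not tested. No paired analysis was possible because each group is 1 pooled library. Sequencing depth limits the rare genes of small leukocyte types, and counting intervals leave out variation between mice.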
